A study of Homo sapiens with 30 samples.

Results

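Chromatin accessibility was examined around 8 genes that encode transcription factors of the pancreatic endocrine lineage: NEUROG3, NEUROD1, INSM1, RFX6, NKX2-2, PAX4, PAX6 and ISL1. A region belonged to a locus when any of its bases lay within 100 kb of the gene's hg19 transcription start site, which was known to the nearest kb. Of the 89929 regions that the authors listed as different between genotypes, 66 (0.0734%) met this rule, and of the 22974 wild-type cluster regions 32 did. The assay was ATAC-seq, in which a transposase cuts open DNA. The cells were HUES8, an established human embryonic stem cell line, differentiated in vitro toward the pancreas. HNF6-Knockout cells, which lack the homeodomain factor HNF6 (ONECUT1), were compared with wild type control cells at each of 5 stages, with 3 samples of each genotype at each stage and 30 in all. The stages were undifferentiated embryonic stem cells (ESC), definitive endoderm (DE), the gut tube (GT), and then the pancreatic stages, endoderm (PE) and progenitors (PP). Below, HNF6-KO and Con name the 2 genotypes. Neither the clonal origin of the knockout cells nor the source of the 3 samples in a group (1 culture or several) is stated, so variation among them may be only technical.

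The 8 factors act in a sequence that is known best from the mouse. NEUROG3, a basic helix-loop-helix protein, starts endocrine differentiation in single progenitor cells. NEUROD1, INSM1, RFX6, PAX4, PAX6, NKX2-2 and ISL1 act after it or beside it as the hormone-producing cell types form. In the mouse, Hnf6 is needed for normal Neurog3 expression and can bind the Neurog3 gene, which makes these loci a natural place to look in HNF6-KO cells. ATAC-seq reads how open the DNA is and not how strongly a gene is transcribed. The protocol harvested cells in bulk, so fewer cells with an open region and a less open region in every cell cannot be told apart.

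Promoter sequences from RefSeq (GRCh38.p14) were found for 6 of the 8 genes and were matched by gene symbol. NEUROG3, NEUROD1, NKX2-2, PAX4 and PAX6 are on the minus strand there and ISL1 on the plus strand, so that higher coordinates lie upstream of the first 5 genes. No hg19 sequence was used, and the hg19 regions were not placed on these sequences. Shown are the 250 bases before the start site of NEUROG3, because a wild-type accessible region beside its start was in none of the lists, and of PAX6, because a region higher in HNF6-KO cells spanned its start at DE. The third sequence is the next RefSeq start of PAX6, of 9 in that table. All run 5′ to 3′, and capitals mark a CCAAT box or one of the letter strings ATTGAT or ATTGAC or ATCGAT, which occur in known binding sites of ONECUT factors.
NEUROG3, chr10:69573423-69573672, minus strand: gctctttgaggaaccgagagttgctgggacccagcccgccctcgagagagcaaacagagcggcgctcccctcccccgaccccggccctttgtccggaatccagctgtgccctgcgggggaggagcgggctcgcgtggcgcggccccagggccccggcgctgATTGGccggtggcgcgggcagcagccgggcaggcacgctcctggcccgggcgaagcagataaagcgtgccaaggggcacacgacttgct
PAX6 first start, chr11:31817962-31818211, minus strand: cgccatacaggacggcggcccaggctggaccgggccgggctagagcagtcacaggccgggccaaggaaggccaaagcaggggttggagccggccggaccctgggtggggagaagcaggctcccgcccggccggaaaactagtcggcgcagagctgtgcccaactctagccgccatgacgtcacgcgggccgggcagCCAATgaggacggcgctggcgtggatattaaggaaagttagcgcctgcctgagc
PAX6 second start, chr11:31812721-31812970, minus strand: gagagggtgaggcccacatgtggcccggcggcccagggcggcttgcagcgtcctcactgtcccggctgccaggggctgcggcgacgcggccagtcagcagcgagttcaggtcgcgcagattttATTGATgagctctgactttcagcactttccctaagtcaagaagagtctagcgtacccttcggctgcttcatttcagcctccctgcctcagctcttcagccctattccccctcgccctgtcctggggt
The capitals in the first 2 sequences are CCAAT boxes, on the opposite strand (ATTGG) in NEUROG3, and those in the third are ATTGAT. Each string was searched on its own, on both strands. ATTGAT was present in 5.58% of the 35116 promoter entries of that table, ATTGAC in 5.17%, ATCGAT in 0.655% and CCAAT in 32.0%. The upstream 250 bases of NEUROG3, NEUROD1, ISL1 and both entries each of NKX2-2 and PAX4 held none of the ONECUT strings. Of the 9 PAX6 entries, 2 held ATTGAT and 1 held ATTGAC. G and C made up 72% of the NEUROG3 window and 68.4% and 62.4% of the PAX6 windows.

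The deposited lists give 3 values of each genotype per region, and all values below come from the authors' deposited tables. Their scaling is not stated and library totals are not given, so depth, and the precision it gives, are unknown. Log2 ratios are of the HNF6-KO mean over the Con mean with 1 added to each, so a positive ratio is higher in HNF6-KO. A range in brackets after a ratio is its span when each of the 6 values was left out in turn. Every region had been selected by the authors for a difference, so a test on the same values only says whether the genotypes overlap. With 3 values against 3, an exact two-sided permutation test cannot give a p below 0.1, which 51 of the 66 regions reached because their genotypes did not overlap (77.3%, against 78.5% of all listed regions). Within a list, the median of any 1 sample's value over its genotype mean lay between 0.903 and 1.14. In the HNF6-KO lists of DE and PP, the first HNF6-KO value was at 1.14 and the other 2 between 0.91 and 0.94. In that of GT the third was at 1.14, the first at 0.948 and the second at 0.903. The samples of a genotype were thus not level in every list. On chromosome 15, the ESC region from 53075501 to 53082400 had 18, 17 and 9 in HNF6-KO cells and 2718, 3002 and 2779 in Con cells. Other chromosome 15 regions were picked out for having next to no HNF6-KO signal. Those at DE, PE and PP lay in or beside this stretch, with HNF6-KO means at most 1.88% of Con means. The GT lists hold no such region, so this loss was not seen at GT, where a region may have missed the authors' threshold. Gene names and expression are not in the files, and no hg19 annotation was used to place the deleted gene or to check the stage labels against marker genes.

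Direction at the 8 loci changed with the stage. At ESC 11 of 21 regions were higher in HNF6-KO, and at DE 10 of 14 were. At GT and PE most were higher in Con cells, with 2 of 9 and 2 of 10 higher in HNF6-KO. At PP 11 of 12 were higher in HNF6-KO. Over all listed regions the share higher in HNF6-KO was 57.4% for ESC, 62.8% for DE, 73.0% for GT, 43.9% for PE and 88.7% for PP. The counts at ESC, DE and PP were therefore near the background of their stage. At GT and PE they were below it, on 9 and 10 regions, several of which share a locus. The 7 GT regions higher in Con were 3 at PAX4, 2 at ISL1, and 1 each at NKX2-2 and PAX6. The 8 PE regions higher in Con were 2 each at NEUROG3 and NKX2-2, and 1 each at INSM1, RFX6, PAX4 and PAX6.

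**Figure D1:**
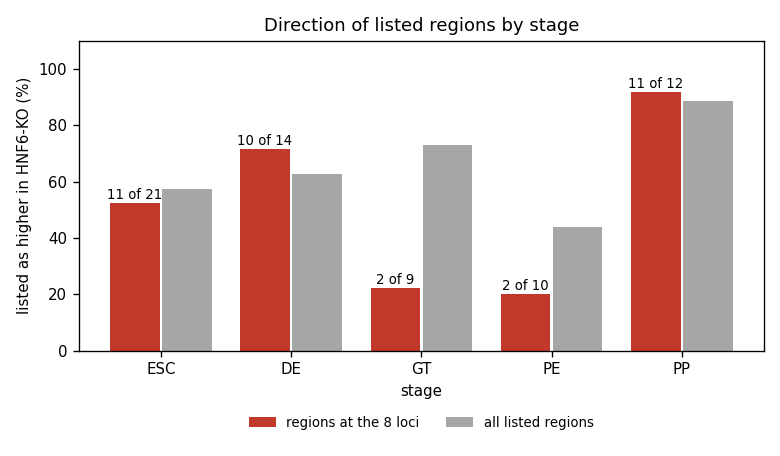
Percent of listed regions that were higher in HNF6-KO cells (y axis) at each of the 5 stages (x axis), for the regions at the 8 loci (red) and for all listed regions (grey). Numbers above the red bars are regions higher in HNF6-KO of all regions at the loci. The red bars stand below the grey ones at GT (2 of 9) and PE (2 of 10).

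The listed regions of the chromosomes that carry these loci leaned in different directions. At GT 25.2% of those of chromosome 7 (PAX4) were higher in HNF6-KO, against 83.3% on chromosome 20 (NKX2-2), 84.2% on chromosome 11 (PAX6) and 71.8% on chromosome 5 (ISL1). At PE the share was 53.5% on chromosome 20, which carries INSM1 and NKX2-2, 30.6% on chromosome 6 (RFX6), 34.9% on chromosome 7, 38.8% on chromosome 11 and 44.1% on chromosome 10 (NEUROG3). Within 5 Mb of PAX4, 13 GT regions were higher in HNF6-KO and 27 in Con. Around ISL1 the GT numbers were 7 and 9. For NKX2-2 and PAX6 the GT surroundings were mostly higher in HNF6-KO, with 58 against 10 in Con within 5 Mb of NKX2-2, and 20 against 6 in Con within 5 Mb of PAX6. At PE, regions within 5 Mb were mostly higher in Con around NKX2-2 (14 higher in HNF6-KO, 61 in Con), INSM1 (13 and 69), RFX6 (1 and 15), PAX6 (6 and 26) and PAX4 (17 and 33). NEUROG3 was the exception among the PE loci, with 40 higher in HNF6-KO and 13 in Con around it. Its own 2 listed PE regions were both higher in Con. INSM1 and NKX2-2 lie close together, so that their surroundings share most regions. The part of these wider shifts in the counts at the loci was not tested.

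**Figure D2:**
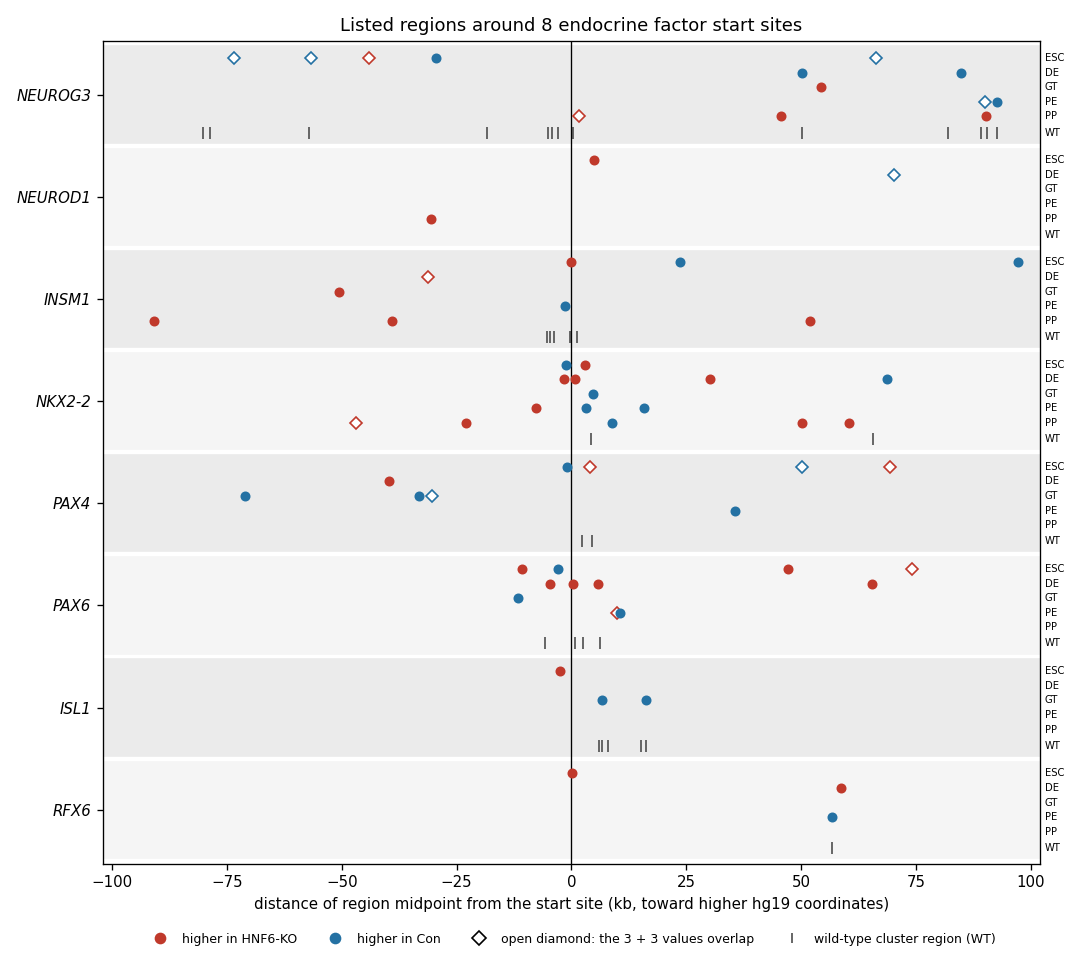
Midpoints of the 66 listed regions (x axis, distance from the start site in kb, toward higher hg19 coordinates) at the 8 loci, with a line of points for each stage from ESC to PP and tick marks for the 32 wild-type cluster regions (WT). Red is higher in HNF6-KO, blue higher in Con, and open diamonds mark the 15 regions whose values overlapped between genotypes. Red and blue points both occur near the start sites of NKX2-2, PAX4, PAX6 and INSM1.

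NEUROG3 (chromosome 10, start at 71333 kb) had 13 listed regions, 5 higher in HNF6-KO and 8 in Con. Its start itself was not listed at any stage. The wild-type cluster 6 region from 71333103 to 71333602 lies at the start, within the 1 kb to which the start is known, and with the 3 cluster regions just downstream (2 of cluster 6 and 1 of cluster 1) it overlapped none of the 10 lists. A region that is not listed missed the authors' threshold, which does not show that it was equally open in both genotypes. The nearest listed region lay just upstream, from 71334251 to 71335100 at PP. It had 335, 238 and 330 in HNF6-KO cells, against 114, 279 and 128 in Con cells. One Con sample stood within the HNF6-KO range, so the genotypes overlapped, and the log2 ratio was 0.79 (0.56 to 1.31).

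The strongest of the PP regions by the authors' p lay farther upstream, from 71378451 to 71378950, with 161, 54 and 94 in HNF6-KO cells and 16, 45 and 33 in Con cells. All HNF6-KO samples were above all Con samples, at a log2 ratio of 1.69 (1.21 to 2.03) and a -log10 p of 8.11 in the authors' deposited table.

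About 90 kb upstream of the start lay the NEUROG3 region with the highest -log10 p, and beside it a place listed at 2 stages. The first, 71425051 to 71426150, held 606, 605 and 680 at PE in HNF6-KO cells and 954, 928 and 991 in Con cells. The genotypes were clearly apart, with a log2 ratio of -0.60 (-0.66 to -0.57) and a -log10 p of 13.4 in the authors' deposited table. It overlaps a wild-type cluster 8 region. Beside it, the PE region from 71421901 to 71424250 had 572, 691 and 662 against 674, 891 and 1104 in Con cells, values that overlapped, at a log2 ratio of -0.47 (-0.64 to -0.29). At PP the inner part of the same place, 71422651 to 71423850, was higher in HNF6-KO, with 285, 239 and 205 against 128, 162 and 100 in Con cells and a log2 ratio of 0.90 (0.74 to 1.09). Direction at this place was thus opposite at PE and PP, with overlapping values at PE. By gene order, the protein-coding neighbours on that side are FAM241B and COL13A1, and the rule does not say which gene such a region serves.

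The other NEUROG3 regions were lower in signal or less even. The DE region from 71383001 to 71383400 had 45, 59 and 36 in HNF6-KO cells and 105, 189 and 84 in Con cells, a log2 ratio of -1.41 (-1.63 to -1.003). A second DE region at 84.9 kb was also higher in Con, at -0.88. The GT region from 71387101 to 71387400 had 58, 67 and 44 in HNF6-KO cells and 35, 3 and 3 in Con cells, and its log2 ratio of 1.97 became 3.84 without the highest Con value. The ESC region over a cluster 1 region, 71275701 to 71276800, had 556, 658 and 452 in HNF6-KO cells and 1115, 694 and 484 in Con cells. Its log2 ratio of -0.46 rested on 1 Con sample and was -0.08 without it. The ESC region nearest the start, 71303201 to 71303750, had 70, 61 and 89 in HNF6-KO cells and 114, 230 and 109 in Con cells, without overlap, at -1.03 (-1.22 to -0.60). The one with the highest -log10 p at ESC, 71399001 to 71399650, had 142, 216 and 162 in HNF6-KO cells and 430, 270 and 214 in Con cells. Its lowest Con value lay just below the highest HNF6-KO value, and the ratio was -0.81 (-1.01 to -0.48). The last 2 ESC regions, at -73.3 kb (higher in Con) and -44.1 kb (higher in HNF6-KO), overlapped between genotypes.

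NEUROD1, the basic helix-loop-helix factor that NEUROG3 switches on, was among the loci with the fewest entries (chromosome 2, start at 182545 kb). It had 3 listed regions and no wild-type cluster region. Upstream of the start, the ESC region from 182549551 to 182550400 had 264, 243 and 226 in HNF6-KO cells and 202, 105 and 125 in Con cells. All HNF6-KO samples stood above all Con samples, and the log2 ratio was 0.76 (0.58 to 1.08). At PP a region at -30.5 kb was higher in HNF6-KO, with 45, 61 and 39 against 0, 14 and 21 in Con cells. At DE a region at 70.3 kb, from 182614601 to 182615900, had 245, 122 and 129 in HNF6-KO cells and 292, 240 and 295 in Con cells, which overlapped in 1 sample of each genotype. No region was listed at GT or PE.

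INSM1, a zinc finger repressor needed for endocrine differentiation in the mouse, had 9 listed regions (chromosome 20, start at 20349 kb). The widest covered the start at ESC, from 20347601 to 20350150, with 1248, 1465 and 1437 in HNF6-KO cells and 879, 1096 and 1160 in Con cells. The difference was small but without overlap, at a log2 ratio of 0.40 (0.29 to 0.49). It overlapped both cluster 1 regions at the start. At PE a region beside the start that shares only 350 bp with it, 20347251 to 20347950, had 142, 135 and 176 in HNF6-KO cells and 239, 294 and 300 in Con cells. Here the Con samples were all higher, at -0.87 (-0.998 to -0.800). Away from the start, regions higher in HNF6-KO were listed at DE (-31.3 kb), GT (-50.6 kb) and PP (-90.9, -39.0 and 51.9 kb), with log2 ratios between 1.64 and 2.52 and HNF6-KO means no higher than 134.3. The GT one, 20298101 to 20298600, had 123, 59 and 129 in HNF6-KO cells and 32, 49 and 8 in Con cells (1.77, 1.33 to 2.32). The strongest at PP by the authors' p, 20309751 to 20310300, had 160, 84 and 114 in HNF6-KO cells and 37, 28 and 48 in Con cells (1.64, 1.37 to 1.84). Neither overlapped between genotypes. The DE one, with 218, 134 and 51 in HNF6-KO cells and 52, 12 and 61 in Con cells, overlapped between genotypes. At ESC 2 regions at 23.6 and 97.2 kb were higher in Con, at -1.08 and -0.80.

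RFX6, a winged-helix factor required for islet development, was listed once at its start and in 1 distal stretch (chromosome 6, start at 117198 kb). At ESC the start region, 117197501 to 117198650, had 778, 797 and 663 in HNF6-KO cells and 507, 451 and 531 in Con cells. All HNF6-KO samples were above all Con samples, with a log2 ratio of 0.59 (0.52 to 0.66). In the distal stretch at 56.8 kb, the PE region from 117254351 to 117255250 had 311, 249 and 361 in HNF6-KO cells and 372, 580 and 734 in Con cells. The log2 ratio was -0.87 (-1.10 to -0.63), and the -log10 p of 14.98 in the authors' deposited table was the highest of the 66 regions. It covers the one wild-type cluster region of this locus, in cluster 8. Close by at DE, 117256401 to 117256800 had 123, 42 and 64 in HNF6-KO cells and 15, 31 and 13 in Con cells, the opposite direction in a neighbouring region that does not overlap it.

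NKX2-2, a homeodomain factor first made in progenitors and then kept in endocrine cells, had the most listed regions, 15, of which 9 were higher in HNF6-KO (chromosome 20, start at 21495 kb). Within 5 kb of its start were 6 regions, and their direction differed by stage and position. Downstream of the start, the region from 21493101 to 21494450 had 383, 271 and 390 in HNF6-KO cells and 525, 504 and 489 in Con cells at ESC, a log2 ratio of -0.54 (-0.63 to -0.39). At DE the overlapping region from 21492701 to 21494050 had 425, 424 and 472 in HNF6-KO cells and 303, 343 and 247 in Con cells, a ratio of 0.56 (0.45 to 0.68). The order of the genotypes was thus reversed from ESC to DE with no overlap at either. Nearest to the start at DE, 21495351 to 21496050 had 369, 327 and 341 against 198, 159 and 265 in Con cells, again higher in HNF6-KO (0.73, 0.58 to 0.95).

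Between about 2 and 16 kb upstream of NKX2-2, 1 region was listed as higher in HNF6-KO, at ESC, and 4 as higher in Con, at GT, PE and PP. From 21497301 to 21498400, ESC values were 420, 367 and 463 in HNF6-KO cells and 248, 300 and 307 in Con cells (0.55, 0.46 to 0.63). The overlapping PE region, 21497451 to 21498800, had 331, 316 and 320 in HNF6-KO cells and 406, 518 and 465 in Con cells (-0.52, -0.61 to -0.43). This place, too, was opposite at the 2 stages without overlap. At GT 21499051 to 21500300, which covers a cluster 3 region, had 268, 264 and 260 in HNF6-KO cells and 440, 418 and 395 in Con cells. Those values were even within each genotype, and the log2 ratio was -0.66 (-0.70 to -0.62). The single PP region higher in Con at any of the 8 loci came next, 21503351 to 21504150, with 55, 95 and 133 in HNF6-KO cells and 273, 185 and 169 in Con cells (-1.14, -1.47 to -0.87). At PE 21510351 to 21511100 had 143, 209 and 183 in HNF6-KO cells and 271, 454 and 409 in Con cells (-1.08, -1.27 to -0.93), with a -log10 p of 14.5 in the authors' deposited table. These last 3 regions lay 4.7 kb (GT), 8.8 kb (PP) and 15.7 kb (PE) from the start.

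The remaining 7 NKX2-2 regions were mostly distal and weak. The 4 PP regions, at -46.9, -22.9, 50.2 and 60.4 kb, were all higher in HNF6-KO, with log2 ratios between 1.14 and 1.87 and HNF6-KO means between 81.3 and 134.7. The genotypes overlapped in the first of them. The strongest of them by the authors' p, 21545001 to 21545450, had 74, 141 and 107 in HNF6-KO cells and 27, 45 and 14 in Con cells (1.87, 1.55 to 2.33). A DE region at 30.1 kb (1.17) and a PE region at -7.8 kb (0.75) had the same direction. The DE region from 21563601 to 21563900 had 22, 10 and 0 in HNF6-KO cells and 37, 80 and 65 in Con cells, the largest ratio toward Con at the 8 loci (-2.40, -3.36 to -1.86).

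**Figure D3:**
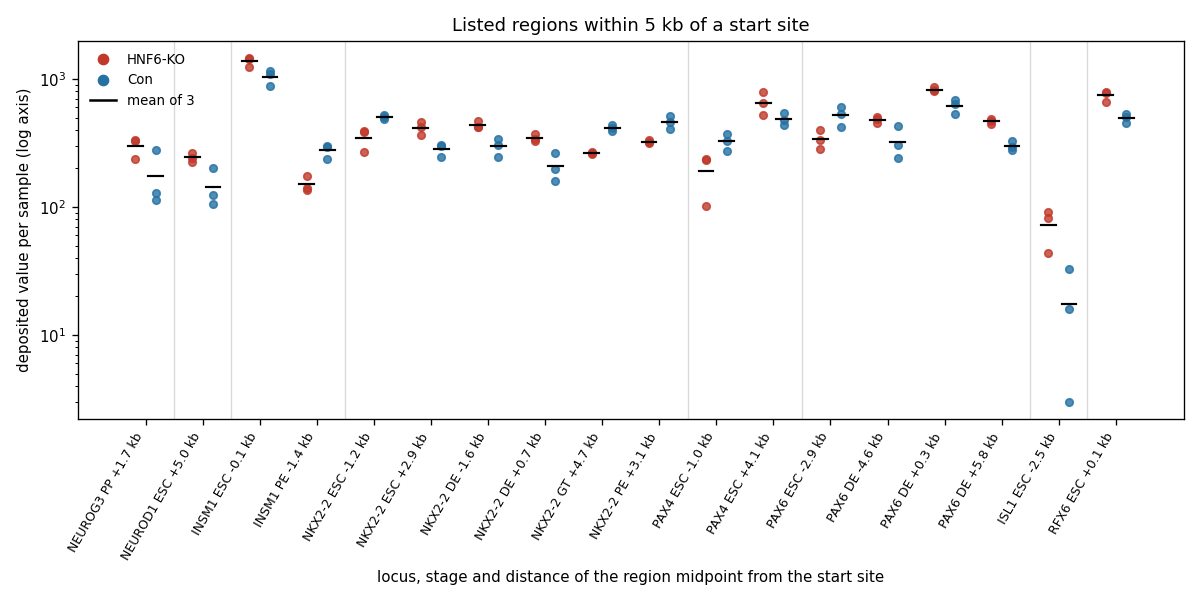
Deposited values of the 3 HNF6-KO samples (red, left) and the 3 Con samples (blue, right) with their means (black lines) for the 18 listed regions within 5 kb of a start site, on a log y axis, labelled on the x axis with locus, stage and signed distance. In 12 regions HNF6-KO was higher and in 6 Con was higher; the ISL1 region at ESC has the lowest values.

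PAX4, a paired-domain factor of the beta and delta cell lines in the mouse, had 9 listed regions and none at PP (chromosome 7, start at 127256 kb). At ESC the region nearest the start, 127254301 to 127255650, had 102, 233 and 237 in HNF6-KO cells and 375, 329 and 275 in Con cells (-0.77, -0.96 to -0.47). Upstream at the same stage, 127259451 to 127260650 was higher in HNF6-KO, with 787, 649 and 521 against 477, 434 and 544 in Con cells (0.43, 0.27 to 0.57). The first was without overlap, while in the second 1 HNF6-KO sample lay below 1 Con sample. This second region touches a cluster 7 region. The 3 GT regions lay downstream and were all higher in Con. The farthest, 127184551 to 127185250, had 22, 44 and 71 in HNF6-KO cells and 150, 154 and 140 in Con cells, the largest of the 3 differences (-1.67, -2.13 to -1.35). That at -33.1 kb had a ratio of -0.92 (-1.06 to -0.74). The nearest to the start, 127224801 to 127226700, had 357, 549 and 381 in HNF6-KO cells and 513, 607 and 732 in Con cells, values that overlapped (-0.52, -0.74 to -0.38). At PE 127291201 to 127291900 had 342, 323 and 288 in HNF6-KO cells and 415, 559 and 465 in Con cells (-0.59, -0.69 to -0.47). At DE a region at -39.7 kb was higher in HNF6-KO, with 141, 76 and 125 against 29, 51 and 52 in Con cells (1.35, 1.13 to 1.57). The remaining 2 regions, at ESC, lay at 50.1 kb (higher in Con) and 69.4 kb (higher in HNF6-KO), and in both the genotypes overlapped. ARF5 and FSCN3 are the protein-coding neighbours on the lower side and SND1 on the higher side, so the distal regions need not belong to PAX4.

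PAX6, a paired-domain and homeodomain factor of islet cells and the eye, had 11 listed regions, 8 of them higher in HNF6-KO (chromosome 11, start at 31839 kb). At DE all 4 were. The widest region of the 66, 31837651 to 31840900, spans the start with 866, 801 and 815 in HNF6-KO cells and 682, 639 and 531 in Con cells (0.42, 0.32 to 0.50). Upstream, 31843951 to 31845700 had 487, 446 and 468 against 328, 293 and 278 in Con cells (0.64, 0.59 to 0.71). Downstream, 31833851 to 31835000 had 491, 502 and 453 against 429, 303 and 242 in Con cells (0.57, 0.40 to 0.82). These 3 regions around the start had no overlap between genotypes, and the first 2 cover a cluster 1 and a cluster 7 region. The fourth DE region lay at 65.4 kb (0.70).

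At ESC a region near the PAX6 start was higher in Con: 31835401 to 31836800 had 335, 403 and 283 in HNF6-KO cells and 603, 536 and 419 in Con cells (-0.61, -0.75 to -0.49). It lies between DE regions and overlaps none of them, so it is not the same place. The other 3 ESC regions, at -10.7, 47.1 and 74.2 kb, were higher in HNF6-KO. The one inside the gene, 31827951 to 31828650, had 194, 153 and 302 in HNF6-KO cells and 107, 115 and 136 in Con cells (0.85, 0.54 to 1.05). Sharing 50 bp with it, the GT region from 31826751 to 31828000 had 307, 293 and 114 in HNF6-KO cells and 348, 329 and 458 in Con cells (-0.67, -0.89 to -0.33). At PE 2 regions about 10 kb upstream had opposite directions within 1 kb of each other. The one higher in HNF6-KO, 31848651 to 31849050, had 58, 87 and 189 against 39, 71 and 29 in Con cells, values that overlapped. The one higher in Con, at 10.6 kb, had 26, 16 and 12 in HNF6-KO cells and 29, 90 and 73 in Con cells. No PAX6 region was listed at PP, the stage with the longest list.

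ISL1, a LIM homeodomain factor of islet cells and motor neurons, had 3 listed regions (chromosome 5, start at 50679 kb). The 2 GT regions lay downstream of the start, over wild-type cluster regions. The one from 50694551 to 50695900 had 339, 379 and 428 in HNF6-KO cells and 690, 676 and 492 in Con cells (-0.70, -0.84 to -0.61), with a -log10 p of 10.1 in the authors' deposited table. In the other, 50684701 to 50686450, the values were 366, 397 and 419 in HNF6-KO cells and 570, 570 and 554 in Con cells (-0.52, -0.56 to -0.47). Both were without overlap. In the first, 1 Con sample stood below the other 2, and in the second the Con samples were even. They cover 3 of the 5 cluster regions of the locus, 2 of cluster 3 and 1 of cluster 7. At ESC a low region upstream, 50676351 to 50676700, had 91, 82 and 44 in HNF6-KO cells and 16, 3 and 33 in Con cells (a ratio of 2, 1.52 to 2.80). No ISL1 region was listed at DE, PE or PP.

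Where lists of different stages overlapped at these loci, they always gave opposite directions. There were 5 such pairs, the 2 at NKX2-2 and 1 each at INSM1, PAX6 and NEUROG3, and in 4 the genotypes did not overlap at either stage. Over the whole series 42.1% of 14578 overlapping pairs of different stages were opposite. The 5 pairs sit at 4 genes and include an overlap of 50 bp at PAX6, and the stages share no libraries. No pair at these loci kept its direction from one stage to another.

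**Figure D4:**
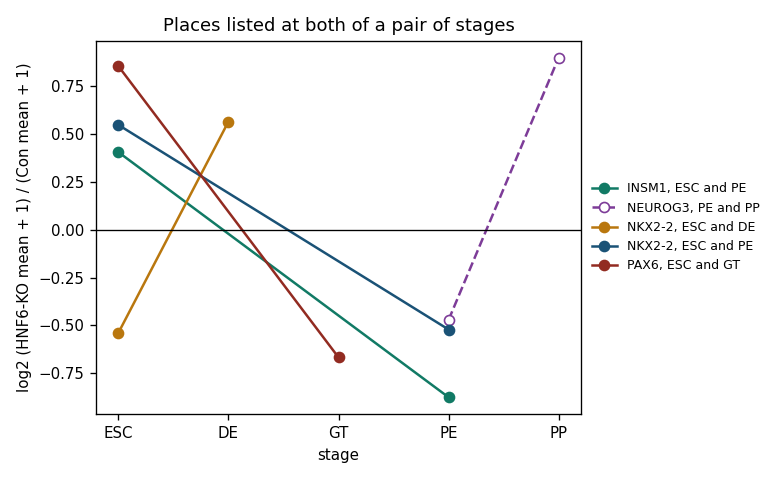
Log2 ratio of HNF6-KO over Con (y axis) for the 5 places that lists of 2 stages share, with each place joined by a line between the stages at which it was listed (x axis); other stages hold no value. Every line crosses 0, and the dashed one (NEUROG3) is the place whose values overlapped at 1 stage. Each ratio is that of the whole listed region of its stage.

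Regions near a start site were wider and had smaller ratios at the median than the distal ones, a description of listed regions with no test. Distance was measured to 1 start per gene, while RefSeq held 2 entries for NKX2-2 and 9 for PAX6. Some regions counted as farther away may therefore lie near another start of the same gene. The 18 regions within 5 kb had a median size of the log2 ratio of 0.60, and 1 of them reached 2-fold. For the 48 regions farther away the median was 1.14, and 29 reached 2-fold, while 45.4% of all listed regions did. Near regions were wider (median 1225 bp, against 625 bp) and their higher genotype had larger means (median 451.7, against 139.8). Whether values depend on the width of a region was not tested. Nor was how the authors' threshold, a -log10 p of at least 5, bears on the ratios of regions with low values. The split by distance was not made over all listed regions, so the near and far counts have no matched share beside them. Genotypes were apart without overlap in 16 of the 18 near regions and 35 of the 48 others, while 78.5% of all listed regions were. All 8 loci had at least 1 region within 5 kb, and 12 of the 18 were higher in HNF6-KO, while 68.1% of all listed regions were. That share pools all stages, with 88.7% at PP, the longest list, and is not matched to the stages of the near regions. Of the near regions 9 came from ESC, before differentiation began, where the share was 57.4%.

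By the authors' p, the 5 strongest entries at the 8 loci were all higher in Con cells, 2 of them by a narrow margin. A -log10 p of at least 10 was given to 5 of the 66 regions in the authors' deposited tables. Of these, 3 were the PE regions upstream of NEUROG3 and NKX2-2 and beyond RFX6, of 8 higher in Con at PE, where 16.7% of the whole Con PE list reached that level. The other 2 were the GT regions at ISL1 and PAX4, of 7 higher in Con at GT, against 3.41% of the Con GT list. None of the 36 regions higher in HNF6-KO at the loci reached it, while 6145 of all 61270 such regions did, and 2877 of all 28659 regions higher in Con. Some came close, with 9.89 for RFX6 at ESC and 9.67 for both NKX2-2 at PP and INSM1 at DE. The GT regions were only just above the level, at 10.06 (ISL1) and 10.15 (PAX4).

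Of the 32 wild-type cluster regions at the loci, 13 lay at NEUROG3 and none at NEUROD1. In all, 15 overlapped at least 1 list (46.9%), near the 38.4% of all cluster regions. By cluster, 8 members belonged to cluster 1, 6 each to clusters 3 and 7, 3 each to clusters 6 and 8, and 2 each to clusters 2, 4 and 9. None belonged to cluster 5. All 3 cluster 6 regions lay within about 5 kb of the NEUROG3 start and in no list. Both listed cluster 8 regions, of 3, were higher in Con at PE, upstream of NEUROG3 and beyond RFX6; the Con PE list overlapped 6.44% of all cluster regions. All 3 listed cluster 3 regions, of 6, were higher in Con at GT, 2 at ISL1 and 1 at NKX2-2. The Con GT list overlapped 2.49% of all cluster regions. Both shares are over all clusters together. Those within clusters 8 and 3 alone were not computed, so no excess at these loci can be read from them. The sources used here do not say what course of accessibility a cluster number stands for. At the edge of the rule, the outermost member was the INSM1 region with its midpoint at 97.2 kb. The nearest region outside was an ESC region with its nearest edge 100.751 kb and its midpoint 101.001 kb from the NEUROD1 start. It was higher in HNF6-KO (79, 103 and 257, against 89, 25 and 73 in Con cells).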

How the data were processed

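The submitters' processing notes name Bowtie2, MACS2 and hg19. Tool versions and roles, the caller of differential regions, scaling and any transposase shift were not given in the sources used here. Each list as deposited holds, per region, the authors' log2 ratio (Con over HNF6-KO), 2 sets of 3 whole numbers and a -log10 p of at least 5. The first set was the higher one in every HNF6-KO list and the second in every Con list, and they were read as those genotypes. The deposited log2 was recomputed from the sets to within rounding. Whether the whole numbers are counts is not stated, so no count model was run. Cluster numbers are those of the files' names; other numbers are written inside the files.

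The members and gene lists were chosen with earlier results of these data known. Regions at all 8 loci are named: at each locus and stage the nearest and the most strongly listed, all within 5 kb of a start, all shared between stages and all on a cluster region (47 of 66, with their 6 values), the other 19 mostly by distance and ratio. A wider set of endocrine genes was not analysed here because no hg19 annotation was used. Overlap and distance code (Python 3.11.15, pandas 2.3.3) was tested on simulated regions. Alternatives were a 50 kb distance, midpoints, a -log10 p of 10, non-overlapping values, 250 bp of overlap, 10 in place of 1 added to means, and leaving out each value.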

Additional observations from a re-analysis of the deposited data

Results flagged for a closer look

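At 4 places the 3 samples of one genotype were all above the other at 1 stage and all below it at another, which drew attention to them. The change in log2 ratio was not tested, since the regions were listed separately at each stage. Each ratio is that of a whole listed region, and no value was given for the shared bases alone. Beside the INSM1 start the ratio at PE minus that at ESC was -1.28, between 2 regions that share 350 bp, of which the ESC one covers the start and the PE one does not reach it. Downstream of the NKX2-2 start the ratio at DE minus that at ESC was 1.1, between 2 regions that share 950 bp. Upstream of that start the ratio at PE minus that at ESC was -1.07, between 2 regions that also share 950 bp. Inside PAX6 the ratio at GT minus that at ESC was -1.52, between 2 regions that share only 50 bp, so it compares mostly different bases.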

How the results depend on the processing

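All values rest on lists the authors had already selected, so the selection could not be repeated with a sample left out, and depth is unknown. No paired analysis was possible because the deposited values carry no replicate numbers. Leaving out each value in turn changed the direction of none of the 47 named regions in 282 recomputed ratios. Where the genotypes did not overlap, it could not have done so. Adding 10 to each mean cannot change a direction and bears only on the size of a ratio. With a 50 kb distance, the regions higher in Con numbered 6 at ESC, 0 at DE and 5 at PE, against 10, 4 and 8, and those higher in HNF6-KO 0 at GT and 6 at PP, against 2 and 11. Restricted to a -log10 p of at least 10, there were 0 regions higher in HNF6-KO at every stage, and 0 higher in Con at ESC, DE and PP, 2 at GT and 3 at PE. The highest value of a region higher in HNF6-KO was 9.89, just below that level. Restricted to regions whose genotypes did not overlap, ESC had 7 higher in HNF6-KO and 6 in Con, and PE had 1 higher in HNF6-KO. The other counts, the midpoint rule and the count of overlapped cluster regions stayed within 1.5 times.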
